A study of Mus musculus with 16 samples.

Results

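The genes described here are 43 genes of mouse chromosome 16 that lie in the stretch from Lipi to Zbtb21 (GRCm38, chr16:75540514-97962622). Dp16 mice carry this stretch in 3 copies in place of 2. The members were taken by symbol from a list that leaves out the smaller gene families of the stretch. Of 384 genes that the count table holds for the stretch, these are 43, and 341 are others. Dopey2 was found under its newer symbol Dop1b and the other 42 by the name listed. Among them 42 code for proteins, and Mir99ahg is a long noncoding RNA.

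Polyadenylated RNA of the hippocampus was sequenced in 16 libraries from mice aged 9 months, 4 each of wild type (WT, C57BL/6J per the labels), Dp16, 5xFAD and 5xFAD-Dp16, with 2 females and 2 males per group and no treatment. Dp16 is a heritable duplication of the chromosome 16 region whose genes correspond to much of human chromosome 21, and 5xFAD carries human transgenes that hold mutations of familial Alzheimer disease, under Thy1 promoter elements, which act mostly in neurons. 5xFAD-Dp16 mice carry both, and WT mice neither. The labels do not give the strain of the other 3 groups, nor litters, and the p-values below measure the spread between these libraries.

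A gene in 3 copies in place of 2 would be transcribed at 1.5 times its usual level if every copy worked alike, which is 0.58 on the log2 scale. Dosage compensation is the name for a rise smaller than the copy number gives. The duplicated stretch is a mixture of unrelated genes, and the members treated here include nuclear RNA-binding proteins, an enzyme of purine synthesis, carbonyl reductases, matrix proteases, a Rac activator, a calmodulin-binding peptide and channel subunits. They share their position on the chromosome and not a pathway.

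Libraries held between 16922937 and 25308693 counts over genes, and 17132 genes passed the filter on low counts. Levels are in CPM, counts scaled to the library total after TMM adjustment. Values per library are given in the order WT 2, 4, 7 and 16, Dp16 3, 5, 12 and 14, 5xFAD 6, 10, 13 and 15, and 5xFAD-Dp16 1, 8, 9 and 11, the numbers being those of the sample titles. Marker genes of excitatory neurons (10 of 10), of CA1 and CA3 pyramidal cells (10 of 10) and of dentate granule cells (8 of 8) passed the filter. Markers of the thalamus, which borders the hippocampus, were high in 6 libraries (log2 score from 1.02 to 1.65, against -0.72 to -0.33 in the other 10), those being 5xFAD 6, 13 and 15, WT 4, Dp16 14 and 5xFAD-Dp16 1. Markers of the choroid plexus ranged over libraries from -3.85 to 1.67 on the same kind of scale, and their mean, set to 0 for WT, was -3.00 for Dp16, -1.40 for 5xFAD and -2.24 for 5xFAD-Dp16.

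Of the 43 members, 40 were tested, and 39 of these had a higher fitted level with 3 copies. In the comparison of the 8 Dp16 carriers with the 8 non-carriers, 21 of the 40 were called at an adjusted p below 0.05, all of them higher, where 0.432% of all genes tested were called higher. The genes called were Rbm11, Mir99ahg, Btg3, D16Ertd472e, Mrpl39, Rwdd2b, Scaf4, Hunk, Urb1, Cfap298, Tmem50b, Gart, Son, Donson, Cryzl1, Cbr1, Cbr3, Dopey2, Hlcs, B3galt5 and C2cd2. DESeq2 called 27, those 21 and Cyyr1, Tiam1, Mis18a, Paxbp1, Mrps6 and Slc5a3. Of all 17132 genes DESeq2 called 484 in this comparison, where edgeR called 91. Later DESeq2 calls in this comparison are to be read against that count. Calls named below are those of edgeR unless DESeq2 is named. Effects and differences are given as log2 fold changes throughout. The median log2 fold change of the 40 was 0.50 (1.42-fold), with quartiles at 0.37 and 0.62. It was 0.57 over the 65 other tested genes of the stretch, 0.0033 over 412 tested genes elsewhere on chromosome 16, and -0.016 over all genes. Member by member, 14 of 40 had every carrier library above every non-carrier library, against 0.304% of all genes.

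**Figure D1:**
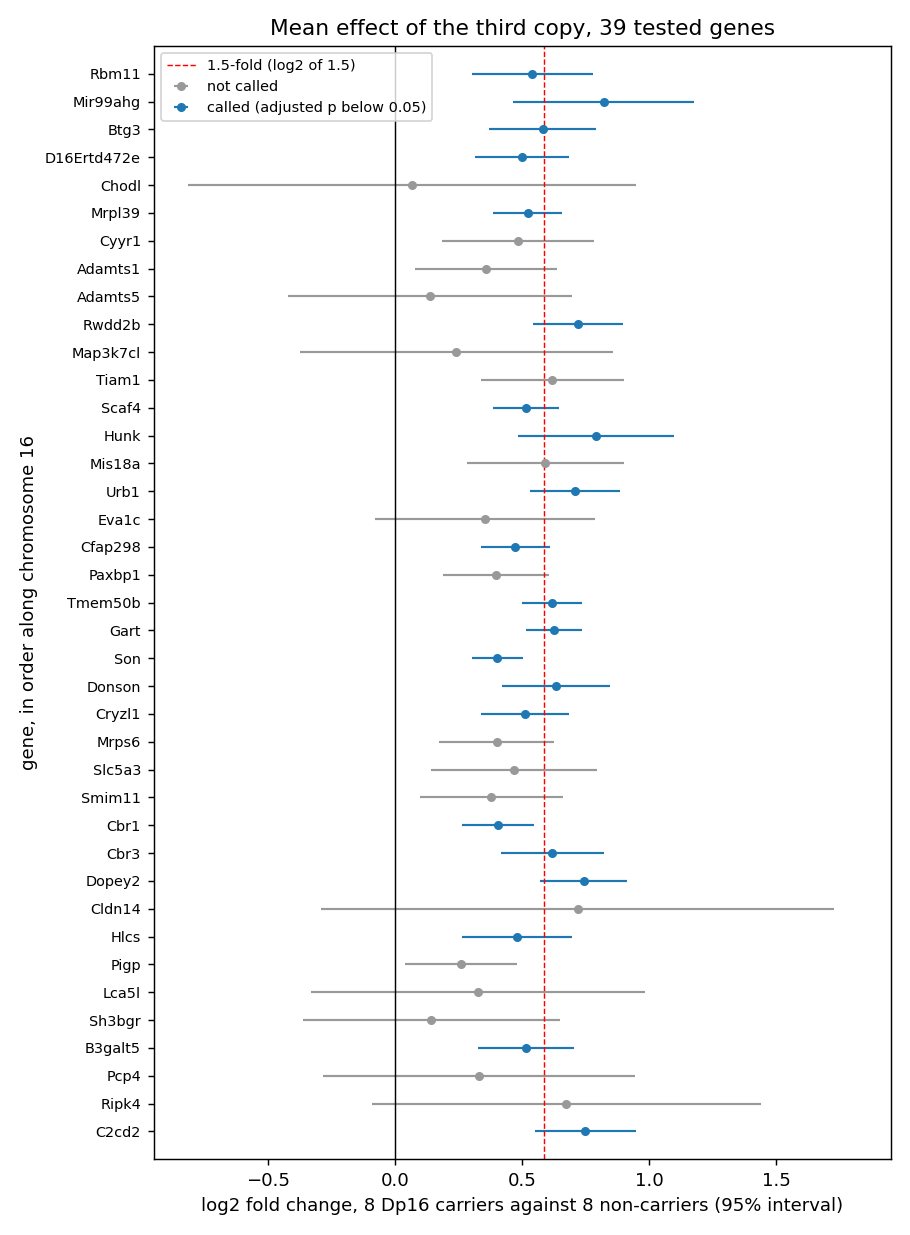
Log2 fold change (horizontal axis) of 39 tested genes of the stretch in 8 Dp16 carriers against 8 non-carriers, in order along chromosome 16, with 95% intervals; blue points were called at an adjusted p below 0.05, grey points were not, and the dashed line is 1.5-fold. All but 3 intervals reach the line, the exceptions being Son, Cbr1 and Pigp, which end below it; Kcne2 (-1.71, interval -4.19 to 0.77) was left out for scale.

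The 95% interval of this mean effect lay above 0 in 30 of 40 genes. It held the log2 of 1.5 in 37, lay wholly below it in Son, Cbr1 and Pigp, and lay above it in none. In the remaining 10 of the 40 genes (Chodl, Adamts5, Map3k7cl, Eva1c, Kcne2, Cldn14, Lca5l, Sh3bgr, Pcp4 and Ripk4) the interval held both 0 and 0.58, so that neither no change nor a full 1.5-fold rise could be told apart from the estimate at this depth and spread. For the other 65 tested genes of the stretch, 46 intervals held the log2 of 1.5, 13 lay below and 6 above. A low level went with a wide interval: the median SE was 0.097 over the 30 members whose mean log2 CPM was at least 2.5, 20 of which were called, and 0.28 over the 10 below that level, 1 of which was called. Along the chromosome the median was 0.52 in the first 14 genes tested (Rbm11 to Hunk), 0.47 in the middle 13 (Mis18a to Kcne2) and 0.48 in the last 13 (Smim11 to C2cd2).

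Each carrier library showed the shift. Set against the WT mean of each gene, the median over the 40 members was 0.46, 0.53, 0.46 and 0.59 in the Dp16 libraries and 0.58, 0.56, 0.44 and 0.51 in the 5xFAD-Dp16 libraries. The WT libraries gave -0.14, 0.020, 0.068 and -0.019, and the 5xFAD libraries 0.040, -0.076, 0.017 and 0.16. The lowest carrier library was thus above the highest non-carrier library, 5xFAD 15.

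Tested separately, the third copy gave 8 calls, all higher, in Dp16 against WT, where 0.228% of all genes were called (0.222% higher, 0.00584% lower). It gave 7, all higher, in 5xFAD-Dp16 against 5xFAD, where 0.304% were called (0.245% higher, 0.0584% lower). Tmem50b and Gart were called in both, 6 genes in the first alone and 5 in the second alone, and 8 of the 21 genes called in the 8 against 8 were called in neither. A call in one alone does not show a difference between the backgrounds. The interaction of the duplication and the transgenes was called in 0 of 40 members by edgeR and 0 by DESeq2 (smallest adjusted p = 0.718). Of all 17132 genes it was also called in 0 by edgeR and 0 by DESeq2, so the 0 among members does not show equal effects either. Among the 40, 5 had an unadjusted p below 0.05, where 6.5% of all genes had one. Those 5 were Rwdd2b, Cldn14, Mrpl39, Cfap298 and Sh3bgr, each with a smaller duplication effect beside the transgenes. Libraries of Dp16 lay above those of WT without overlap in 21 of 40 members (2.41% of all genes), and those of 5xFAD-Dp16 above 5xFAD in 20 (3.46%). The median effect was 0.57 in the first comparison and 0.47 in the second.

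**Figure D2:**
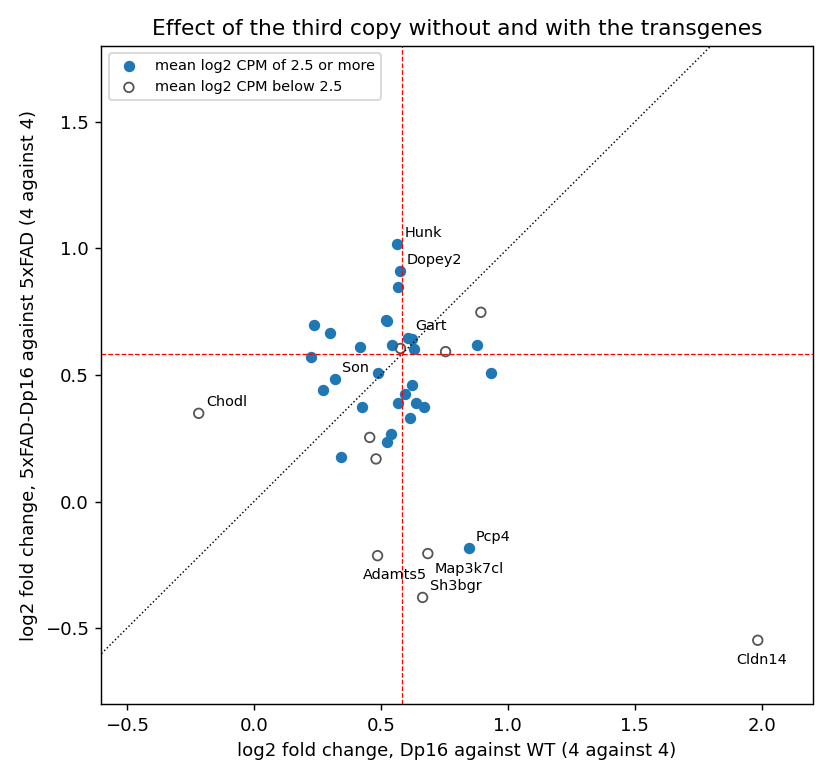
Log2 fold change of 39 tested genes in Dp16 against WT (horizontal) and in 5xFAD-Dp16 against 5xFAD (vertical), 4 libraries against 4 in each; filled points are genes whose mean log2 CPM was at least 2.5, the dotted line marks equal effects and the dashed lines 1.5-fold. Most points lie near the crossing of the dashed lines, and Cldn14, Pcp4, Sh3bgr, Map3k7cl and Adamts5 lie below 0 on the vertical axis only; Kcne2 (-2.72 and -0.69) was left out for scale.

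Calls in the 8 against 8 depended in part on the libraries and the method. In every one of 24 alternative fits (7 of other design or tool, 1 without the 6 libraries rich in thalamus markers, 16 without 1 library each) 10 members were called, namely Mrpl39, Rwdd2b, Scaf4, Urb1, Cfap298, Tmem50b, Gart, Son, Dopey2 and C2cd2. Without the 6 libraries rich in thalamus markers 17 members were called, 15 of them among the 21, and Rbm11, Mir99ahg, Btg3, Donson, Cbr3 and Hlcs were lost; that fit leaves 5xFAD 10 as the only 5xFAD library, which is then assumed to vary like the others. With the choroid plexus score as a covariate Rbm11, Mir99ahg, Btg3, Hunk, Cryzl1 and Hlcs were lost, and with limma on RPKM values Rbm11, Mir99ahg, D16Ertd472e, Cryzl1, Cbr1, Hlcs and B3galt5. In bulk RNA, fewer cells of a type and less RNA per cell cannot be told apart.

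Of the genes for RNA processing and ribosome assembly, edgeR called 4 of 5 higher with the third copy, by 1.32-fold to 1.63-fold. Son encodes a large protein of nuclear speckles that is needed for splicing of weak introns, and it was the most abundant member in CPM. Son had 254, 253, 252 and 238 CPM in the WT libraries, 307, 313, 314 and 312 in those of Dp16, 208, 216, 240.2 and 225 in those of 5xFAD and 292, 313, 312 and 327 in those of 5xFAD-Dp16. Every carrier library lay above every non-carrier library, and the mean was lowest in 5xFAD. The mean effect of the third copy on Son was 0.40 ± 0.048 (SE; adjusted p = 0.00017), with an interval of 0.30 to 0.50, and so lay below 1.5-fold. Per background it was 0.32 ± 0.067 (SE; adjusted p = 0.0836) in Dp16 against WT and 0.49 ± 0.067 (SE; adjusted p = 0.00179) in 5xFAD-Dp16 against 5xFAD.

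Scaf4, which binds the tail of RNA polymerase II and keeps it from stopping early, had 42.2, 40.1, 44.6 and 37.6 CPM in the WT libraries, 56.9, 54.04, 55.4 and 53.4 in those of Dp16, 34.99, 36.9, 46.5 and 36.8 in those of 5xFAD and 60.1, 59.97, 62.01 and 54.2 in those of 5xFAD-Dp16. The carrier libraries were all higher than the others, and 5xFAD 13 was the highest of the non-carriers. The effect was 0.51 ± 0.061 (SE; adjusted p = 0.000188) over all carriers and 0.61 ± 0.087 (SE; adjusted p = 0.00209) beside the transgenes. Urb1, a nucleolar factor of ribosome assembly, had 12.02, 8.11, 9.56 and 11.1 CPM in the WT libraries, 14.5, 16.7, 15.4 and 13.8 in those of Dp16, 7.63, 9.23, 9.26 and 8.54 in those of 5xFAD and 16.5, 15.2, 15.5 and 15.3 in those of 5xFAD-Dp16, again without overlap. It rose by 0.71 ± 0.083 (SE; adjusted p = 0.000167), and in 5xFAD-Dp16 against 5xFAD by 0.85 ± 0.12 (SE; adjusted p = 0.00179), where its interval of 0.60 to 1.10 lay above 1.5-fold. Of the libraries in that comparison, 5xFAD 6, 13 and 15 and 5xFAD-Dp16 1 were rich in thalamus markers. The part of thalamus tissue in the rise of Urb1 was not tested.

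Rbm11, an RNA-binding protein of brain and testis that affects splicing, had 5.49, 6.91, 5.08 and 7.69 CPM in the WT libraries, 7.48, 11.1, 11.1 and 9.06 in those of Dp16, 6.58, 7.61, 6.69 and 6.75 in those of 5xFAD and 8.92, 10.03, 8.64 and 10.4 in those of 5xFAD-Dp16. Dp16 3, at 7.48, overlapped WT 16 and 5xFAD 10. Rbm11 rose by 0.54 ± 0.11 (SE; adjusted p = 0.0386), a call kept in 5 of 16 fits that leave out 1 library (those without WT 16, Dp16 3, Dp16 14, 5xFAD-Dp16 1 or 5xFAD 10). Paxbp1, a binding partner of the Pax transcription factors, was not called by edgeR, at 0.40 ± 0.098 (SE; adjusted p = 0.0932), and was called by DESeq2 (adjusted p = 0.00794), by edgeR without the 6 libraries rich in thalamus markers (adjusted p = 0.0279) and with the thalamus score as a covariate (adjusted p = 0.00372). The estimate of Paxbp1 was close to that of Son, and its interval of 0.19 to 0.61 lay above 0. Of the exon bases of Paxbp1, 20.7% are shared with a gene on the opposite strand.

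The 22 listed splicing and RNA 3′ end genes outside the stretch, which include the SR proteins and Scaf8, gave 0 calls by edgeR in the 8 against 8 comparison. Of these, 3 had an unadjusted p below 0.05, and DESeq2 called 1. Over all genes 16.9% had such a p in this comparison, the share against which this and the other partner lists are to be read. Their median was -0.035, and their values ran from -0.29 to 0.17.

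Gart encodes a single protein with 3 of the enzyme activities of de novo purine synthesis, and it lies head to head with Son. It is on the minus strand at chr16:91621186-91646952, and Son is on the plus strand at chr16:91647506-91679221 (GRCm38, GENCODE M21), so that their annotated 5′ ends are 554 bases apart. The sequences around the RefSeq starts of both are shown because these neighbours responded unequally to the same extra copy. Whether sequence has a part in this was not tested. Each run holds 300 bases of the gene's own strand from RefSeq (GRCm38.p6), 250 before to 50 after the start, and capitals mark the GC box GGGCGG or its complement CCGCCC.
Gart, chr16:91646923-91647222, minus strand: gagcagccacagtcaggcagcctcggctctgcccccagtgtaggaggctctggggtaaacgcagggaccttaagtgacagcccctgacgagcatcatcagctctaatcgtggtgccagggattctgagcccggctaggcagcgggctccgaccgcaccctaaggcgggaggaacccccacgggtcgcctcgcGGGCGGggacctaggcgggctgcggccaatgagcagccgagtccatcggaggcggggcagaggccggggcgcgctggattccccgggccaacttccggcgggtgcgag
Son, chr16:91647574-91647873, plus strand: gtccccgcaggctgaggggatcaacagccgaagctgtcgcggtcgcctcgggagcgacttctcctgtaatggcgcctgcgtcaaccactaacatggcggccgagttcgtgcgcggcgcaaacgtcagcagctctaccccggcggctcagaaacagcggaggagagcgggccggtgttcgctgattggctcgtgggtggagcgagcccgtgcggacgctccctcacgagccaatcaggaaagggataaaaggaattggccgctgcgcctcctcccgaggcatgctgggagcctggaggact
The Gart run holds 1 GC box and 26 CpG dinucleotides, and the Son run 0 boxes and 31 CpG. The RefSeq start of Gart is 20 bases from its annotated 5′ end. That of Son lies 318 bases downstream of the annotated 5′ end of Son. The Son run thus begins inside the annotated gene and holds none of the 554 bases between the 2 genes.

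Gart had 30.3, 35.6, 35.8 and 33.3 CPM in the WT libraries, 50.1, 55.1, 49.7 and 50.6 in those of Dp16, 32.2, 33.7, 30.6 and 34.9 in those of 5xFAD and 49.4, 49.3, 55.1 and 52.1 in those of 5xFAD-Dp16. The carriers lay between 49.3 and 55.1 CPM and the others between 30.3 and 35.8, with no overlap. The effect was 0.61 ± 0.074 (SE; adjusted p = 0.000856) in Dp16 against WT, 0.65 ± 0.073 (SE; adjusted p = 0.000309) in 5xFAD-Dp16 against 5xFAD and 0.63 ± 0.052 (SE; adjusted p = 4.59e-06) over all carriers, with an interval of 0.52 to 0.74 that held 1.5-fold. It had the smallest adjusted p of the members. The log2 ratio of Gart to Son was -2.82 ± 0.14 (SD, n = 8) in non-carriers and -2.60 ± 0.067 (SD, n = 8) in carriers, higher in 8 of 8 carriers than in any non-carrier. An exact two-sided permutation test over all splits into 8 and 8 libraries gave p = 0.0001554, the smallest it can give, and 0.000777 after adjustment over 5 pairs of neighbours or paralogs compared. A noncoding gene on the opposite strand shares 19.7% of the exon bases of Gart.

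RefSeq promoters were matched for 36 of 43 members, 1 each, and held 2 to 46 CpG in 300 bases, with a median of 23.5, against 19 over the 15855 promoters of genes tested. The 15855 were not reduced to 1 per gene. For members the start nearest the annotated gene start was taken. It was still 169070 bases away in Tiam1, 93011 in Mir99ahg, 39965 in C2cd2, 4140 in Eva1c, 3024 in Cyyr1 and 1984 in Cbr1, and these promoters enter the values below. A GC box (GGGCGG on either strand) was found in 22 of 36, which is 61.1%, against 58.7%. The letters CCAAT, on either strand, were found in 9 of 36, and TATAAA in 3 of 36, where 37.3% and 7.66% of promoters of genes tested held them. Median CpG was 27 in 20 promoters of called members and 21 in 15 of tested members not called.

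Of 7 metabolic and glycan enzymes, 6 were called higher with the third copy, and Pigp was not called although its interval lay above 0. None of the 15 listed partners of Gart in purine synthesis was called by edgeR in the 8 against 8, 2 had an unadjusted p below 0.05, DESeq2 called 0, and the median was -0.040. Cbr1 and Cbr3 encode neighbouring carbonyl reductases, which reduce quinones and other carbonyl compounds with NADPH. On the RPKM scale, which allows for gene length, Cbr1 was the higher in WT, at 43.3 ± 5.23 RPKM against 8.59 ± 0.761 for Cbr3 (SD, n = 4).

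Cbr1 had 46.98, 57.1, 53.1 and 58.4 CPM in the WT libraries, 71.7, 75.5, 77.4 and 88.4 in those of Dp16, 63.3, 55.5, 49.4 and 69.4 in those of 5xFAD and 67.4, 74.4, 70.9 and 73.4 in those of 5xFAD-Dp16. Dp16 was above WT without overlap, while 5xFAD 15, at 69.4 CPM, was above 1 of the 5xFAD-Dp16 libraries. It rose by 0.40 ± 0.067 (SE; adjusted p = 0.00635) over all carriers, with an interval of 0.26 to 0.55 that lay below 1.5-fold. The effect was 0.54 ± 0.095 (SE; adjusted p = 0.0176) in Dp16 against WT and 0.27 ± 0.095 (SE; adjusted p = 0.162) beside the transgenes, and with limma on the RPKM values the 8 against 8 call of Cbr1 was lost (0.35, adjusted p = 0.0847).

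Cbr3 had 10.5, 8.45, 10.8 and 10.8 CPM in the WT libraries, 15.7, 15.2, 14.8 and 12.4 in those of Dp16, 11.02, 11.3, 8.97 and 7.27 in those of 5xFAD and 17.003, 15.1, 13.9 and 17.7 in those of 5xFAD-Dp16. No carrier library fell to the level of the others. It rose by 0.62 ± 0.095 (SE; adjusted p = 0.00299) and, in 5xFAD-Dp16 against 5xFAD, by 0.72 ± 0.13 (SE; adjusted p = 0.0308). The log2 ratio of Cbr1 to Cbr3 was 2.52 ± 0.35 (SD, n = 8) in non-carriers and 2.30 ± 0.26 (SD, n = 8) in carriers. That difference of -0.22 was within the spread of the libraries (exact two-sided permutation test, p = 0.171, adjusted p = 0.285 over 5 pairs).

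**Figure D3:**
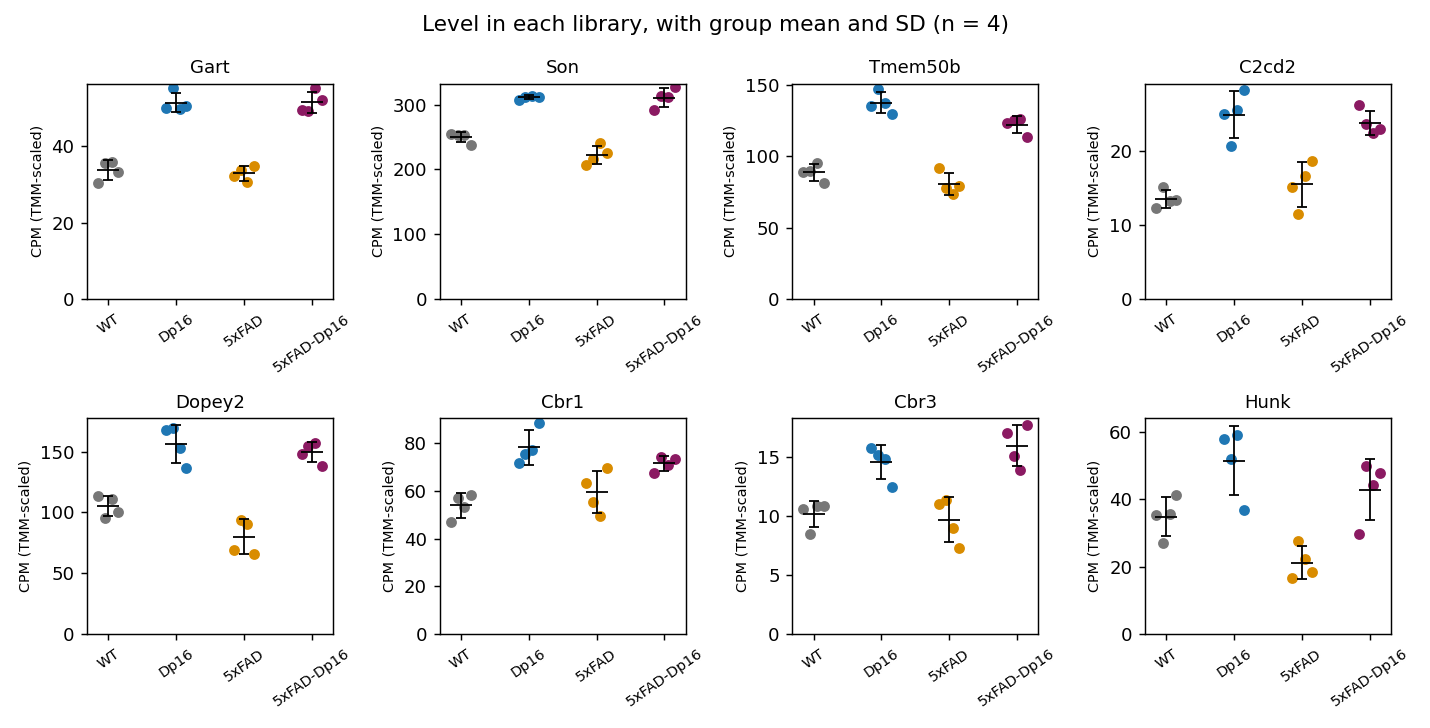
Level of 8 genes of the stretch in CPM, 1 point per library, with the mean and SD of each group (n = 4) in black and axes from 0. Gart, Son, Tmem50b, C2cd2, Dopey2 and Cbr3 show both groups with 3 copies above both groups with 2, while Cbr1 and Hunk overlap, and the 5xFAD mean is the lowest of the 4 for all but C2cd2 and Cbr1.

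Cryzl1, a relative of quinone oxidoreductases, had 38.6, 37.6, 31.9 and 36.9 CPM in the WT libraries, 50.5, 54.9, 51.7 and 62.2 in those of Dp16, 45.96, 34.7, 31.8 and 46.7 in those of 5xFAD and 50.003, 54.4, 52.7 and 56.4 in those of 5xFAD-Dp16. The 8 carriers were all higher, by 0.51 ± 0.082 (SE; adjusted p = 0.00445), and Dp16 differed from WT by 0.60 ± 0.12 (SE; adjusted p = 0.0447). Hlcs attaches biotin to the carboxylases. It had 11.6, 12.3, 14.97 and 11.5 CPM in the WT libraries, 17.3, 16.5, 19.9 and 20.95 in those of Dp16, 9.48, 13.001, 16.3 and 13.9 in those of 5xFAD and 18.2, 16.4, 16.99 and 17.6 in those of 5xFAD-Dp16, with 5xFAD 13 the highest non-carrier at 16.3 and 5xFAD-Dp16 8 the lowest carrier at 16.4. The rise of Hlcs was 0.48 ± 0.10 (SE; adjusted p = 0.0442), and the call was kept in 4 of 16 fits without 1 library (WT 7, 5xFAD 6, 5xFAD 10 or 5xFAD 13). The 8 listed carboxylases and biotinidase had a median of -0.20 and 0 calls by edgeR, 3 of them with an unadjusted p below 0.05 and 1 called by DESeq2.

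B3galt5, a galactosyltransferase of glycolipids and glycoproteins, had 78.4, 86.9, 77.9 and 64.7 CPM in the WT libraries, 123, 103, 123 and 133 in those of Dp16, 76.2, 65.7, 85.8 and 98.7 in those of 5xFAD and 88.4, 123, 109 and 108 in those of 5xFAD-Dp16. The lowest carrier, 5xFAD-Dp16 1 at 88.4, was below 5xFAD 15. B3galt5 rose by 0.51 ± 0.090 (SE; adjusted p = 0.00969). Pigp, a subunit of the enzyme that starts the GPI anchor, had 8.45, 10.5, 10.1 and 11.1 CPM in the WT libraries, 13.02, 11.5, 12.7 and 13.8 in those of Dp16, 12.3, 8.59, 10.4 and 15.5 in those of 5xFAD and 13.03, 13.8, 12.3 and 13.7 in those of 5xFAD-Dp16. The 5xFAD libraries of Pigp spanned the range of both carrier groups. Its difference of 0.26 ± 0.10 (SE; adjusted p = 0.233), with an interval of 0.04 to 0.48, was the smallest of these enzymes. Without the 6 libraries rich in thalamus markers the difference of Pigp was 0.50 ± 0.12 (SE; adjusted p = 0.0887). Of the exon bases of Pigp, 11.8% are shared on the same strand and 16.4% on the opposite strand, the partners including Ttc3. The 21 tested GPI anchor genes elsewhere had a median of -0.0089, 0 calls by edgeR, 3 with an unadjusted p below 0.05 and 0 by DESeq2.

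Mitochondrial ribosomes, which translate the few proteins encoded in mitochondrial DNA, have a large-subunit protein (Mrpl39) and a small-subunit protein (Mrps6) among the members. Mrpl39 had 21.6, 23.7, 20.95 and 24.4 CPM in the WT libraries, 35.6, 32.8, 37.4 and 38.4 in those of Dp16, 27.5, 22.6, 21.7 and 26.4 in those of 5xFAD and 34.2, 31.7, 29.4 and 31.8 in those of 5xFAD-Dp16. No carrier overlapped a non-carrier. It rose by 0.52 ± 0.065 (SE; adjusted p = 0.000277). In Dp16 against WT the effect was 0.67 ± 0.092 (SE; adjusted p = 0.00185) and beside the transgenes 0.37 ± 0.091 (SE; adjusted p = 0.0944), whose interval lay below 1.5-fold. The interaction, -0.30 ± 0.13 (SE), did not pass the test (adjusted p = 0.718).

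Mrps6 was not called by edgeR, at 0.40 ± 0.11 (SE; adjusted p = 0.12), and was called by DESeq2 (adjusted p = 0.0148). It shares 19.9% of its exon bases with genes on the same strand, Slc5a3 among them, and its count is uncertain to that extent. The 75 other tested genes of the mitochondrial ribosome had a median of -0.074 in carriers, 0 called by edgeR, 12 with an unadjusted p below 0.05 (16.9% over all genes) and 1 called by DESeq2. In 5xFAD-Dp16 against 5xFAD their median was -0.18, beside -0.030 over all genes, and 29 had such a p (19.1% over all genes). There edgeR called 0 of them and DESeq2 2. In Dp16 against WT 2 had such a p (5.7% over all genes), and for the interaction 15 (6.5%), with 0 called by edgeR or DESeq2 in either. The cause was not tested.

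Among genes of replication and division control, edgeR called Donson and Btg3 higher. Mis18a, whose estimate was similar to theirs, passed the test of DESeq2 but not that of edgeR. Donson, which acts at replication forks, had 5.61, 5.19, 4.71 and 5.59 CPM in the WT libraries, 7.52, 6.79, 8.59 and 9.57 in those of Dp16, 6.94, 5.22, 6.01 and 6.04 in those of 5xFAD and 10.6, 9.37, 7.96 and 9.93 in those of 5xFAD-Dp16. Dp16 and WT did not overlap, nor did 5xFAD-Dp16 and 5xFAD, but Dp16 5 was below 5xFAD 6. Donson rose by 0.63 ± 0.099 (SE; adjusted p = 0.0035). It shares 9.2% of its exon bases on the same strand and 3.3% with Son on the other.

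Btg3, of the antiproliferative BTG family, had 10.5, 7.68, 9.09 and 8.49 CPM in the WT libraries, 13.1, 11.9, 15.5 and 11.5 in those of Dp16, 8.39, 8.51, 6.45 and 6.68 in those of 5xFAD and 10.1, 10.7, 12.5 and 12.9 in those of 5xFAD-Dp16. Both pairs of groups were separate, and the lowest carrier, 5xFAD-Dp16 1 at 10.1, was below WT 2. Its rise was 0.58 ± 0.099 (SE; adjusted p = 0.00819). Mis18a, which helps load the centromere histone CENP-A, was at 0.59 ± 0.15 (SE; adjusted p = 0.0932) in edgeR, with an adjusted p of 0.00794 in DESeq2. In the list of 14 tested partners for centromere loading and replication 0 were called by edgeR and 0 by DESeq2 in carriers, 2 had an unadjusted p below 0.05, and the median was -0.12.

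Of 4 genes of membrane trafficking and small membrane proteins, Dopey2, C2cd2 and Tmem50b rose by 1.53-fold to 1.68-fold with no overlap of carriers and non-carriers, and the small membrane protein Smim11 was not called, at 0.38 ± 0.13 (SE; adjusted p = 0.192). Tmem50b, a protein of the endoplasmic reticulum and Golgi membranes, had 88.97, 89.8, 95.4 and 81.4 CPM in the WT libraries, 136, 147, 138 and 129 in those of Dp16, 91.7, 78.004, 73.4 and 79.1 in those of 5xFAD and 123, 126, 127 and 114 in those of 5xFAD-Dp16. The 8 carriers lay between 113.8 and 147 CPM and the others between 73.4 and 95.4. The effect was 0.63 ± 0.078 (SE; adjusted p = 0.000968) without the transgenes, 0.60 ± 0.078 (SE; adjusted p = 0.000863) with them and 0.62 ± 0.055 (SE; adjusted p = 9.96e-06) over all carriers.

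C2cd2, which carries a C2 domain, had 12.2, 15.1, 13.2 and 13.4 CPM in the WT libraries, 24.98, 20.6, 25.5 and 28.2 in those of Dp16, 15.1, 11.5, 16.6 and 18.6 in those of 5xFAD and 26.1, 23.5, 22.4 and 22.9 in those of 5xFAD-Dp16. Dp16 14 was the highest library and 5xFAD 10 the lowest. C2cd2 rose by 0.75 ± 0.094 (SE; adjusted p = 0.000314), and in Dp16 against WT by 0.88 ± 0.13 (SE; adjusted p = 0.00444) with an interval of 0.60 to 1.16, above 1.5-fold. Dopey2 (Dop1b), a large protein of traffic between endosomes and Golgi, had 113, 95.4, 111 and 101 CPM in the WT libraries, 168, 169, 153 and 136 in those of Dp16, 68.8, 94.04, 89.98 and 65.8 in those of 5xFAD and 148, 155, 157 and 138 in those of 5xFAD-Dp16. Its carriers lay between 136 and 169 CPM and the others between 65.8 and 113. It rose by 0.74 ± 0.081 (SE; adjusted p = 6.65e-05) over all carriers and by 0.91 ± 0.11 (SE; adjusted p = 0.000814) in 5xFAD-Dp16 against 5xFAD, where the interval of 0.67 to 1.15 lay above 1.5-fold. Of the libraries in that comparison, 5xFAD 6, 13 and 15 and 5xFAD-Dp16 1 were rich in thalamus markers. Among all non-carriers the median of Dopey2 was 79.4 CPM in libraries rich in thalamus markers and 105.8 in the others. Among all carriers it was 141.8 and 156.0. The part of thalamus tissue in this rise was not tested.

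Of 5 signalling genes, edgeR called Hunk in the 8 against 8, and DESeq2 called Hunk and Tiam1. Hunk, a kinase related to AMPK, had 35.4, 27.1, 35.6 and 41.3 CPM in the WT libraries, 57.97, 52.2, 59.3 and 36.7 in those of Dp16, 16.6, 27.7, 22.3 and 18.3 in those of 5xFAD and 29.6, 50.1, 44.4 and 47.7 in those of 5xFAD-Dp16. Dp16 3, 5 and 12 were the highest, and 5xFAD 6, 13 and 15 the lowest. In all 4 groups the libraries rich in thalamus markers had less Hunk than the others of their group. The rise of Hunk was 0.79 ± 0.14 (SE; adjusted p = 0.0172), and it was lost without Dp16 3, Dp16 5, Dp16 12 or 5xFAD 6. With the thalamus score as a covariate it was 0.67 ± 0.068 (SE; adjusted p = 1.82e-05).

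Tiam1, which activates the GTPase Rac and acts in dendritic spines, had 185, 132, 151 and 165 CPM in the WT libraries, 246, 239, 231 and 194 in those of Dp16, 95.5, 161, 161 and 81.3 in those of 5xFAD and 202, 212, 209 and 193 in those of 5xFAD-Dp16. All 8 carriers were above all 8 non-carriers, and 5xFAD 6 and 15 stood far below the rest. The mean difference of 0.62 ± 0.13 (SE; adjusted p = 0.0553) missed the threshold in edgeR, and DESeq2 called Tiam1 (adjusted p = 0.000633). Without the 6 libraries rich in thalamus markers it was 0.44 ± 0.066 (SE; adjusted p = 0.00271). Of the 19 Rac pathway partners, 0 were called by edgeR, 4 had an unadjusted p below 0.05, DESeq2 called 1, and the median was 0.11.

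Pcp4 is a small protein that speeds the exchange of calcium on calmodulin and is abundant in CA2 pyramidal cells and in thalamus. By length it was the most abundant member, at 125 ± 43.4 RPKM in WT (SD, n = 4). Pcp4 had 69.9, 117, 62.5 and 71.5 CPM in the WT libraries, 109, 109.9, 89.2 and 271 in those of Dp16, 194, 75.3, 119.5 and 171 in those of 5xFAD and 186, 94.6, 89.8 and 119.8 in those of 5xFAD-Dp16. The highest library of WT, of Dp16 and of 5xFAD-Dp16 was in each case the one of high thalamus markers, and 5xFAD 10 was the lowest of 5xFAD. The mean difference was 0.33 ± 0.28 (SE; adjusted p = 0.57). Among libraries rich in thalamus markers the 2 carriers had 186 and 271 CPM and the 4 non-carriers 117 to 194. Among the others the 6 carriers had 89.2 to 120 CPM and the 4 non-carriers 62.5 to 75.3, with no overlap. With the thalamus score as a covariate the effect was 0.51 ± 0.090 (SE; adjusted p = 0.00848), and without the 6 libraries 0.51 ± 0.11 (SE; adjusted p = 0.0617). Igsf5 shares exon bases with Pcp4 on the same strand, 23.7% of those of Pcp4.

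**Figure D4:**
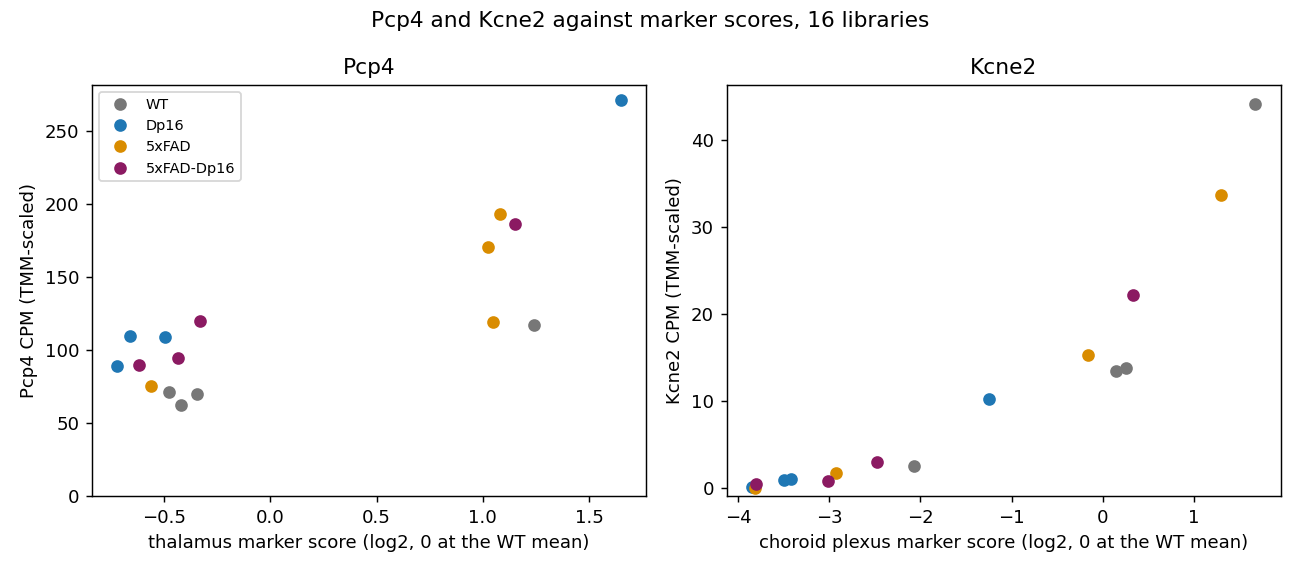
Pcp4 level against the thalamus marker score (left) and Kcne2 level against the choroid plexus marker score (right) in 16 libraries, in CPM, coloured by group; scores are means of log2 CPM over the marker genes set to 0 at the WT mean. In WT, Dp16 and 5xFAD-Dp16 the library of highest Pcp4 is the one with a thalamus score above 1, and every library with Kcne2 above 10 CPM has a choroid plexus score of -1.25 or more.

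Of the 11 listed calmodulin partners of Pcp4, Camk4, a calcium and calmodulin dependent kinase of neuronal nuclei encoded outside the stretch, was the only one called with the third copy. Camk4 had 31.1, 26.1, 29.4 and 30.2 CPM in the WT libraries, 37.7, 32.3, 39.3 and 28.6 in those of Dp16, 18.4, 24.2, 22.4 and 15.4 in those of 5xFAD and 26.4, 36.0, 36.8 and 35.7 in those of 5xFAD-Dp16. The 5xFAD libraries were below all others. Camk4 differed by 0.50 ± 0.10 (SE; adjusted p = 0.0389) in the 8 against 8, by 0.75 ± 0.15 (SE; adjusted p = 0.0422) in 5xFAD-Dp16 against 5xFAD, and by -0.54 ± 0.15 (SE; adjusted p = 0.0349) in 5xFAD against WT. The 8 against 8 call of Camk4 was kept in 4 of 16 fits without 1 library (Dp16 14, 5xFAD-Dp16 1, 5xFAD 10 or 5xFAD 13) and lost with the choroid plexus score as a covariate (adjusted p = 0.208). Camk4 was not called in Dp16 against WT (0.24, adjusted p = 0.942, with TMM factors from genes outside the stretch). Without the 6 libraries rich in thalamus markers, 5xFAD 6, 13 and 15 among them, it was at 0.43 in the 8 against 8. It was then at 0.60 in 5xFAD-Dp16 against 5xFAD and at -0.34 in 5xFAD against WT. With the thalamus score as a covariate these values were 0.42 (adjusted p = 0.00812), 0.62 (adjusted p = 0.0121) and -0.43 (adjusted p = 0.0237). The part of thalamus tissue was not tested.

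Map3k7cl and Ripk4, kinase-related genes known mainly outside brain, were near the lower limit. Map3k7cl had 0.432, 0.912, 1.04 and 0.546 CPM in the WT libraries, 1.03, 1.497, 0.712 and 1.52 in those of Dp16, 0.767, 1.499, 0.776 and 0.914 in those of 5xFAD and 1.53, 0.533, 0.676 and 0.687 in those of 5xFAD-Dp16, and its difference was 0.24 ± 0.29 (SE; adjusted p = 0.692). For Ripk4 it was 0.67 ± 0.36 (SE; adjusted p = 0.349). Both intervals were wider than a 1.5-fold change.

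Extracellular matrix, junction and surface genes gave no call in the 8 against 8 among 6 tested by edgeR, although the intervals of Cyyr1 and Adamts1 lay above 0; DESeq2 called Cyyr1. Adamts1, a protease of the brain matrix proteoglycans, was at 0.36 ± 0.13 (SE; adjusted p = 0.208), and with the choroid plexus score as a covariate at 0.64 (adjusted p = 0.00647). The related Adamts5 was at 0.14 ± 0.26 (SE; adjusted p = 0.813), the little known membrane protein Cyyr1 at 0.48 ± 0.14 (SE; adjusted p = 0.141) and the surface receptor Eva1c at 0.36 ± 0.20 (SE; adjusted p = 0.385). The log2 ratio of Adamts1 to Adamts5 did not differ between carriers and non-carriers beyond the spread (exact two-sided permutation test, p = 0.296, adjusted p = 0.37 over 5 pairs). The 14 lectican proteases and lecticans outside the stretch had a median of 0.067, 0 calls by edgeR, 1 with an unadjusted p below 0.05 and 1 called by DESeq2.

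Chodl, a C-type lectin of few neurons, had 0.36996, 0.432, 0.235 and 0.294 CPM in the WT libraries, 0.698, 0.0534, 0.178 and 0.254 in those of Dp16, 0.121, 0.81002, 0.194 and 0.562 in those of 5xFAD and 0.612, 0.444, 0.241 and 0.549 in those of 5xFAD-Dp16. These are 1 to 20 counts per library, and the difference of 0.07 ± 0.42 (SE; adjusted p = 0.949) was smaller than its error. Cldn14, a tight junction protein best known from the inner ear and kidney, had 0, 0.336, 0.518 and 0.126 CPM in the WT libraries, 0.493, 1.02, 0.668 and 1.74 in those of Dp16, 1.94, 0.446, 1.698 and 2.25 in those of 5xFAD and 2.23, 0.577, 0.434 and 1.37 in those of 5xFAD-Dp16. Its levels were lowest in WT, with 0 to 11 counts per library, and the carriers overlapped the others, with a difference of 0.72 ± 0.47 (SE; adjusted p = 0.448).

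Slc5a3 imports myo-inositol, an osmolyte of brain cells, and Kcne2 is a subunit that tunes potassium channels and is strongly expressed in choroid plexus epithelium. Neither was called by edgeR. For Slc5a3 the difference was 0.47 ± 0.15 (SE; adjusted p = 0.175), with a call by DESeq2 (adjusted p = 0.0458), and 0 of 10 osmolyte partners were called by edgeR, 4 with an unadjusted p below 0.05 and 1 called by DESeq2. Kcne2 had 2.53, 13.4, 44.1 and 13.8 CPM in the WT libraries, 0.904, 10.2, 0.08902 and 1.02 in those of Dp16, 1.69, 0, 33.7 and 15.3 in those of 5xFAD and 0.787, 22.2, 0.386 and 2.88 in those of 5xFAD-Dp16. WT 7 and 5xFAD 13, the libraries with the highest choroid plexus scores (1.67 and 1.29), were also the highest for Kcne2. The mean difference was -1.71 ± 1.13 (SE; adjusted p = 0.458), below 0 unlike all other tested members, and with the choroid plexus score as a covariate 0.61 ± 0.40 (SE; adjusted p = 0.612).

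Of the cilium genes, Cfap298, needed for assembly of the dynein arms of motile cilia, had 23.4, 26.8, 25 and 25.5 CPM in the WT libraries, 41.4, 40.2, 39.8 and 33.1 in those of Dp16, 26.4, 30.8, 27.6 and 25.5 in those of 5xFAD and 31.9, 33.1, 35.6 and 37.995 in those of 5xFAD-Dp16. All carriers were higher, by 0.47 ± 0.064 (SE; adjusted p = 0.000719). In Dp16 against WT the effect was 0.62 ± 0.091 (SE; adjusted p = 0.00381) and beside the transgenes 0.33 ± 0.090 (SE; adjusted p = 0.111). More than any other member it shares exon bases, 53.6% of them with genes on the opposite strand. Lca5l, a relative of a ciliary protein, had 0.617, 0.4801, 1.37 and 1.05 CPM in the WT libraries, 0.657, 1.87, 1.11 and 1.35 in those of Dp16, 0.565, 1.13, 1.12 and 1.3002 in those of 5xFAD and 0.787, 1.73, 0.579 and 1.56 in those of 5xFAD-Dp16, and its difference was 0.33 ± 0.31 (SE; adjusted p = 0.607).

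Mir99ahg (chr16:77236317-77773427, plus strand) is the host transcript of a cluster of microRNAs, short RNAs that guide repression of messenger RNAs through their seed. The mature forms that RefSeq (GRCm38.p6) places inside it on the same strand are of 6 kinds. The 3 from the 5′ arm are shown because their loci inside the host are carried in 3 copies with it, and capitals mark the seed, bases 2 to 8. Whether loci elsewhere give the same mature forms was not examined, so their total copy number is not given.
mmu-miR-99a-5p, chr16:77598940-77598961: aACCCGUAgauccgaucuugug
mmu-let-7c-5p, chr16:77599672-77599693: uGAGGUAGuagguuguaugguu
mmu-miR-125b-5p, chr16:77646279-77646300: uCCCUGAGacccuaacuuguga
Their seeds differ from each other. Mature microRNAs have no poly(A) tail and were not measured; the values are those of the host transcript. Mir99ahg had 2.16, 1.87, 1.88 and 1.76 CPM in the WT libraries, 3.25, 4.86, 2.58 and 3.598 in those of Dp16, 2.704, 2.07, 1.601 and 2.88 in those of 5xFAD and 4.76, 3.46, 2.85 and 4.76 in those of 5xFAD-Dp16. Dp16 was above WT throughout, and 5xFAD-Dp16 9 fell just under 5xFAD 15. It rose by 0.82 ± 0.17 (SE; adjusted p = 0.0359), the largest fold of the members called (1.77-fold), and kept the call in 5 of 16 fits without 1 library (those without Dp16 12, 5xFAD-Dp16 9, 5xFAD 10, 5xFAD 13 or 5xFAD 15).

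Rwdd2b and D16Ertd472e are little characterized, the second being the mouse form of a gene linked to neuron development. Rwdd2b had 6.23, 6.96, 6.03 and 8.28 CPM in the WT libraries, 12.5, 12.7, 12.7 and 14.5 in those of Dp16, 9.52, 8.303, 7.37 and 9.101 in those of 5xFAD and 11.8, 11.3, 12.98 and 12.8 in those of 5xFAD-Dp16. Carriers exceeded non-carriers throughout, by 0.72 ± 0.083 (SE; adjusted p = 0.000137). In Dp16 against WT the effect was 0.93 ± 0.12 (SE; adjusted p = 0.0011), whose interval of 0.68 to 1.19 lay above 1.5-fold, and beside the transgenes 0.51 ± 0.12 (SE; adjusted p = 0.0829). D16Ertd472e had 18.6, 15.6, 16.996 and 17.1 CPM in the WT libraries, 22.8, 24.1, 20.7 and 28.1 in those of Dp16, 17.9, 13.3, 17.1 and 21.01 in those of 5xFAD and 25.6, 25.2, 23.7 and 24.2 in those of 5xFAD-Dp16, with Dp16 12 below 5xFAD 15, and rose by 0.50 ± 0.087 (SE; adjusted p = 0.01). Sh3bgr was at 0.14 ± 0.24 (SE; adjusted p = 0.783).

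The 3 members that did not pass the filter were Sim2, a transcription factor of neural development, Kcnj15, a potassium channel, and Fam3b, a secreted protein of the pancreas. Summed over the 4 libraries of a group, Sim2 had 18 counts for WT, 28 for Dp16, 18 for 5xFAD and 36 for 5xFAD-Dp16. Kcnj15 had 6, 8, 15 and 5 in the same order, and Fam3b 0, 2, 1 and 0. No comparison was made at these counts.

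In 5xFAD against WT, edgeR called the 40 members at a share close to that of all genes. In the other comparisons of mice with and without the transgenes it called 0 and 1, and a difference from all genes was not tested. In 5xFAD against WT, where 7.26% of all genes tested were called (5.31% higher, 1.96% lower), 3 of 40 members were called by edgeR, Cldn14 higher and Hunk and Dopey2 lower, and DESeq2 called Son, lower, as well. In 5xFAD-Dp16 against Dp16 (3.02% of all genes, 2.99% higher and 0.035% lower) edgeR called 0 of 40 and DESeq2 0, and 2 had an unadjusted p below 0.05, where 11.2% of all genes had one. Over all 5xFAD carriers against all non-carriers (8.6% of all genes, 6.61% higher and 1.98% lower) edgeR called Hunk, and DESeq2 called Hunk, Tmem50b and Dopey2, each lower, and Cldn14, higher. Of all 17132 genes DESeq2 called 2124 in 5xFAD against WT, 689 in 5xFAD-Dp16 against Dp16 and 2367 over all 5xFAD carriers. No member had all 8 transgene carriers above all 8 non-carriers, or all 8 below, where 2.67% and 0.14% of all genes did. The median over the 40 was 0.12 in 5xFAD against WT and -0.015 in 5xFAD-Dp16 against Dp16, beside 0.027 and -0.0073 over all genes.

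**Figure D5:**
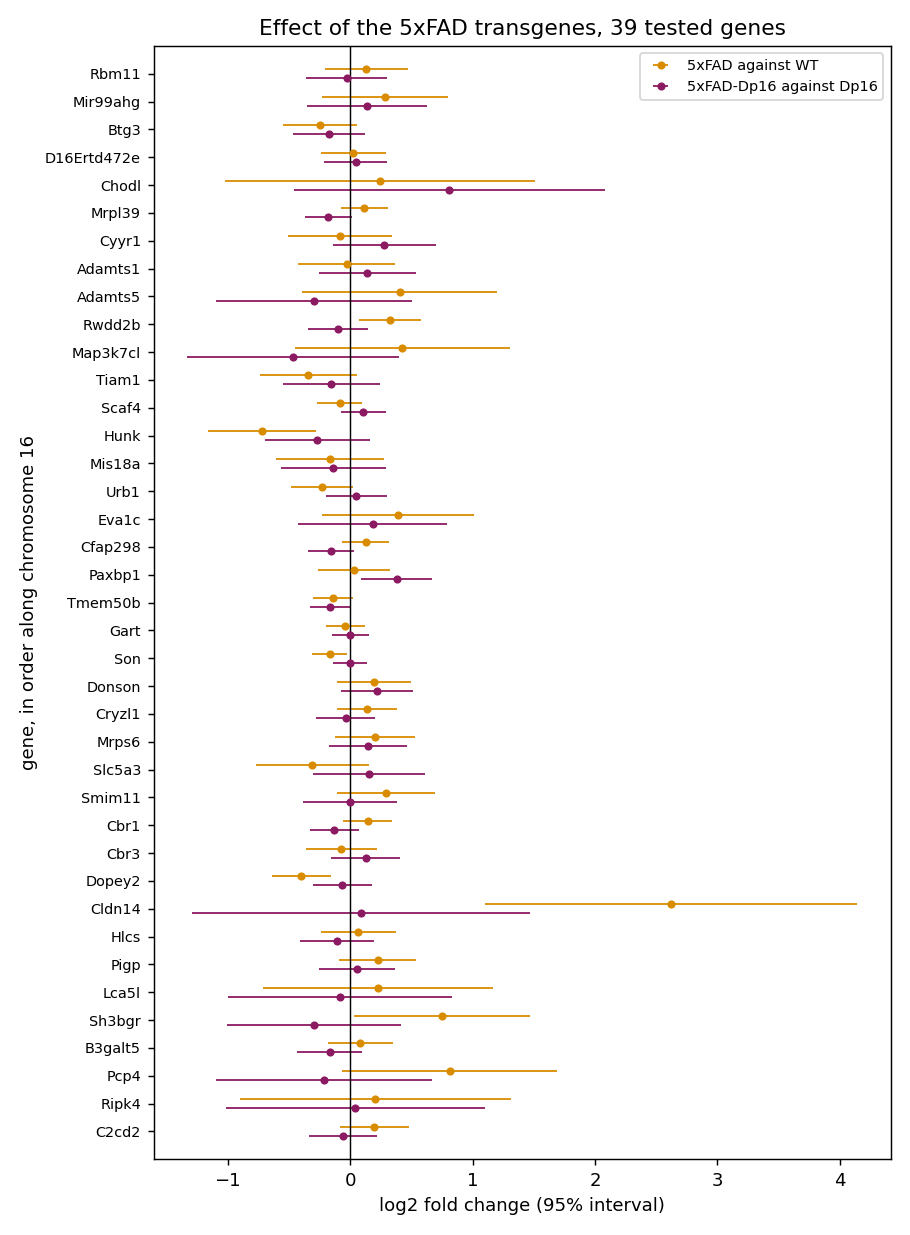
Log2 fold change (horizontal axis) of 39 tested genes in 5xFAD against WT (orange) and in 5xFAD-Dp16 against Dp16 (purple), in order along chromosome 16, with 95% intervals. Most intervals cross 0, those of Hunk, Dopey2 and Cldn14, the 3 genes called, lie clear of 0 in 5xFAD against WT and hold it in 5xFAD-Dp16 against Dp16; Kcne2 was left out for scale (-0.58 and 1.44).

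Hunk differed by -0.72 ± 0.20 (SE; adjusted p = 0.0471) in 5xFAD against WT, by -0.27 ± 0.20 (SE; adjusted p = 0.695) in 5xFAD-Dp16 against Dp16, and by -0.49 ± 0.14 (SE; adjusted p = 0.0458) over all transgene carriers. By the values above, 5xFAD 10 at 27.7 CPM was just above WT 4 at 27.1, and the groups otherwise did not overlap. The 5xFAD group holds 3 of the 6 libraries rich in thalamus markers, and its excitatory neuron score was -0.65 ± 0.59 (SD, n = 4), with 5xFAD 15 at -1.45. The call over all transgene carriers stood in 4 of 16 fits without 1 library (WT 4, Dp16 14, 5xFAD-Dp16 8 or 5xFAD 10). The call in 5xFAD against WT stood in 4 of 16 (WT 4, Dp16 14, 5xFAD-Dp16 1 or 5xFAD 10). Without the 6 libraries rich in thalamus markers the 5xFAD against WT difference of Hunk was -0.49 (adjusted p = 0.0998), and with the thalamus score as a covariate it was -0.52 (adjusted p = 0.00336). Without those libraries the value for Hunk over all transgene carriers was -0.38 ± 0.084 (SE; adjusted p = 0.0184), with the thalamus score as a covariate -0.39 ± 0.067 (SE; adjusted p = 0.000787), and with the choroid plexus score -0.49 (adjusted p = 0.0576).

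Dopey2 was at -0.40 ± 0.11 (SE; adjusted p = 0.0456) in 5xFAD against WT and at -0.06 ± 0.11 (SE; adjusted p = 0.898) in 5xFAD-Dp16 against Dp16. The 4 WT libraries of Dopey2 were above the 4 of 5xFAD, with 5xFAD 6 and 15 the lowest. The call of Dopey2 was kept in 4 of 16 fits without 1 library (Dp16 14, 5xFAD-Dp16 1, 5xFAD 10 or 5xFAD 13). Without the 6 libraries rich in thalamus markers the difference of Dopey2 was -0.22 (adjusted p = 0.483), and with the thalamus score as a covariate -0.33 (adjusted p = 0.0522). Tiam1 had its lowest values in the same libraries, 5xFAD 6 and 15, and its difference of -0.34 ± 0.19 (SE; adjusted p = 0.272) did not pass the test.

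Cldn14 held 21 counts in WT and 158 in 5xFAD, summed over 4 libraries each, and differed by 2.62 ± 0.71 (SE; adjusted p = 0.037). By the values above, 5xFAD 10 at 0.446 CPM was below WT 7 at 0.518, and the other 3 5xFAD libraries, all rich in thalamus markers, were at 1.70 to 2.25. Dp16 14 and 5xFAD-Dp16 1, also rich in thalamus markers, were the highest of their groups at 1.74 and 2.23, while WT 4 was at 0.336. Without the 6 libraries Cldn14 differed by 1.77 ± 1.04 (SE; adjusted p = 0.535), and with the thalamus score as a covariate by 2.02 ± 0.53 (SE; adjusted p = 0.0305). The call of Cldn14 was lost in 8 of 16 fits without 1 library (any of the 4 WT libraries, Dp16 5, 5xFAD-Dp16 11, 5xFAD 6 or 5xFAD 15). In 5xFAD-Dp16 against Dp16 it was at 0.09 ± 0.65 (SE; adjusted p = 0.98). The part of thalamus tissue in these 3 results was not tested beyond these values.

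Among the 209 tested partner genes of the lists, 9 were called by edgeR in 5xFAD against WT, where 7.26% of all genes were, a larger share than in the lists. In 5xFAD-Dp16 against Dp16 edgeR called 0 and DESeq2 1, and 14 had an unadjusted p below 0.05, where 11.2% of all genes did, again a larger share. The partners named next, up to Pak3, are given with their values in 5xFAD against WT. In the purine list, Gmps was lower, at -0.38 ± 0.080 (SE; adjusted p = 0.00855) and Adssl1 higher, at 0.82 ± 0.21 (SE; adjusted p = 0.0264). The replication helicase gene Mcm3 was higher by 0.93 ± 0.21 (SE; adjusted p = 0.0156), and of the mitochondrial ribosome Mrpl52 by 0.39 ± 0.089 (SE; adjusted p = 0.0136) and Mrpl24 by 0.34 ± 0.097 (SE; adjusted p = 0.0434). Of the osmolyte list, Akr1b3, which makes sorbitol, was higher by 0.35 ± 0.090 (SE; adjusted p = 0.0259) and the inositol carrier Slc2a13 lower, at -0.42 ± 0.11 (SE; adjusted p = 0.0294). Pak3, a kinase downstream of Rac, was lower, at -0.30 ± 0.087 (SE; adjusted p = 0.0477). Over all transgene carriers Scaf8, the relative of Scaf4, was lower, at -0.19 ± 0.052 (SE; adjusted p = 0.0288).

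Sex was a term of the fit and called 0 of 40 members by edgeR and 0 by DESeq2, with 1 at an unadjusted p below 0.05 and 0.0642% of all genes called (0.035% higher and 0.0292% lower in females).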

How the data were processed

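Gene counts and RPKM values for 16 hippocampus libraries were used as deposited. The authors deposited 1 table of raw counts per gene, and 1 table in which the authors' deposited RPKM values are already scaled by depth and gene length. Per the submitters' processing notes, bcl2fastq, FastQC 0.11.5, HISAT2 2.1.0, SAMtools 1.5 and HTSeq 0.6.1 were used with GRCm38. The library kit keeps strand, per the labels' protocols, and the strand setting of the counting is not given in the sources used here. Groups, sex and replicate numbers come from the labels.

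Counts were fitted with edgeR 4.0.16 (R 4.3.3, quasi-likelihood test, group and sex as terms, TMM factors from 0.944 to 1.13, filter at a minimum count of 10). P-values were adjusted by Benjamini-Hochberg over the 17132 genes tested, and genes were called at an adjusted p below 0.05. Alternatives were DESeq2 1.42.0, TMM factors from genes outside the stretch, no filter, limma 3.58.1 on log2(RPKM + 0.1), no sex term, marker scores as covariates, and fits without libraries. The microglia score as a covariate was chosen after seeing the data. A library counted as high in thalamus markers at a log2 score above 0.75. Positions and exon sharing come from GENCODE M21, sequences from RefSeq. Values per library are given for members called in any comparison, with a 95% interval of the duplication effect clear of 1.5-fold, or among the 4 lowest or 4 highest in mean log2 CPM, and for Kcne2, which was chosen after its values were seen. Other tested members are given by fold change, and partner genes where called (for the transgenes, at most 2 of smallest p per list). The members and lists were chosen with earlier results of these data known. The fitting script was tested on simulated data.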

Additional observations from a re-analysis of the deposited data

Results flagged for a closer look

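In 11 of 160 sets of a member and a group, 1 library stood apart from the other 3 by Dixon's criterion at the 95% level, which chance meets in about 1 of 20 sets. Pcp4 stood apart in WT 4 at 117 CPM, against 62.5 to 71.5 in the other WT libraries, and in Dp16 14 at 271, against 89.2 to 109.9 in the other Dp16 libraries. Both are libraries rich in thalamus markers, with scores of 1.24 and 1.65. Kcne2 stood apart in Dp16 5 at 10.2 CPM, against 0.0890 to 1.02, and in 5xFAD-Dp16 8 at 22.2, against 0.386 to 2.88. These had the highest choroid plexus scores of their groups, -1.25 and 0.33.

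Rbm11 was highest in 5xFAD 10 at 7.61 CPM, against 6.58 to 6.75 in the rest of its group. Adamts1 was highest in WT 7 at 46.6 CPM, the WT library with the highest choroid plexus score. Rwdd2b was highest in Dp16 14 at 14.5 CPM and Map3k7cl in 5xFAD-Dp16 1 at 1.53 CPM, both libraries rich in thalamus markers. Scaf4 was highest in 5xFAD 13 at 46.5 CPM, against at most 36.9. Son was lowest in WT 16 at 238 CPM, against 252 to 254 in the other WT libraries. Cbr3 was lowest in WT 4 at 8.45 CPM, against 10.5 to 10.8. The part of tissue content in these values was not tested.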

How the results depend on the processing

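No paired analysis was possible because each replicate number belongs to 1 library only. The count of members called over all Dp16 carriers (21) stayed within 1.5 times in every alternative (15 with limma to 31 without a filter), and the median of the 40 was 0.44 with limma on RPKM. In Dp16 against WT (8), 16 were called by DESeq2, 19 without a filter, 13 without the 6 libraries rich in thalamus markers, 14 with the thalamus score as a covariate, 4 with the choroid plexus score, and 6 to 13 when 1 library was left out, 13 being without 5xFAD 6. In 5xFAD-Dp16 against 5xFAD (7), the same settings gave 22, 22, 11 and 13, the microglia score gave 4, and leaving out 1 library 6 to 17 (17 without 5xFAD 10). In 5xFAD against WT (3), 6 were called without a filter, 0 without the libraries rich in thalamus markers, 1 with the choroid plexus score, 0 with the microglia score, and 0 to 6 when 1 library was left out (6 without 5xFAD 10, 0 without WT 2, WT 7, WT 16, Dp16 5, 5xFAD-Dp16 11, 5xFAD 6 or 5xFAD 15, 1 without WT 4, Dp16 3, Dp16 12, 5xFAD-Dp16 8 or 5xFAD-Dp16 9). In 5xFAD-Dp16 against Dp16 (0), 1 was called without a filter, without those 6 libraries, with the thalamus score, and at most when 1 library was left out (0 to 1, Dp16 14). Over all transgene carriers (1), DESeq2 called 4, the fit without a filter 6, either the choroid plexus or the microglia score 0, and leaving out 1 library 0 to 3 (3 without Dp16 14 or 5xFAD 10, 1 without WT 4, 5xFAD 6 or 5xFAD-Dp16 8, otherwise 0). Without a filter the interaction called 3 members (1 higher, 2 lower) and sex 2. That fit tested 32180 genes and called 290 for the interaction and 330 for sex. It called 1447 over all Dp16 carriers, 360 in Dp16 against WT and 1656 in 5xFAD-Dp16 against 5xFAD, each with 1 member lower. It called 2692 in 5xFAD against WT, 890 in 5xFAD-Dp16 against Dp16 and 2793 over all transgene carriers. DESeq2 called 73 of all genes in Dp16 against WT and 638 in 5xFAD-Dp16 against 5xFAD. The microglia score moves with the transgenes. Signs turned for Chodl (limma -0.031, no sex term -0.0014, without the 6 libraries -0.36, choroid plexus score -0.23, and -0.31 to 0.26 when 1 library was left out, the lowest without Dp16 3), Adamts5 (-0.039 to 0.28 when 1 library was left out, the lowest without 5xFAD-Dp16 1), Map3k7cl (-0.33 without the 6 libraries) and Kcne2 (3.98 without the 6 libraries, which leaves a 5xFAD library at 0, and 0.61 with the choroid plexus score). The causes were not tested. The median SE was 0.28 over the 10 members below a mean log2 CPM of 2.5 and 0.097 over the 30 others, and whether depth sets this was not tested.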
